A study of Mus musculus with 2 samples.

Results

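The genes described here encode the transcription machinery: subunits of RNA polymerases I, II and III (Pol I, Pol II and Pol III), TATA-binding protein associated factors (TAFs), Mediator subunits and general transcription factors. They are the protein-coding genes whose symbols begin with Polr1, Polr2, Polr3, Gtf2 or Gtf3, or with Taf or Med and a digit, and 105 of the 21883 protein-coding genes on chromosomes 1 to 19, X and Y met this rule. The rule used names alone and no measured value, but the set was chosen with earlier results of these data known. They were read in the H3K27ac profiles (histone H3 acetylated at lysine 27, a mark of active promoters and enhancers) of colonic macrophages from Tle4cKO mice, with genotype Tle4f/f Lyz2-Cre, and from WT mice, which carry Lyz2-Cre alone. All mice were male C57BL/6 animals aged 11.1 weeks with no treatment. CD64-positive cells with low Ly6C and no Siglec-F were sorted at one time from 4 mice per genotype and pooled by genotype. The mark was mapped by CUT&Tag, where antibody-tethered Tn5 transposase inserts sequencing adapters at marked chromatin. Each genotype therefore has 1 library, and no difference between the genotypes has a replicate check or a p-value. Lyz2-Cre acts across the myeloid lineage, including neutrophils and monocytes, so a loss of Tle4 in it is not confined to gut macrophages. Tle4 is a Groucho-family corepressor that is recruited by DNA-binding proteins.

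Pol I transcribes ribosomal RNA genes, Pol II makes messenger RNA, and Pol III makes transfer RNA and other small RNAs. Pol II starts at promoters with the help of TFIID, which consists of the TATA-binding protein and TAFs, of the general factors TFIIA, TFIIB, TFIIE, TFIIF and TFIIH, and of Mediator, which carries signals from enhancer-bound factors to the polymerase. Pol I uses the selectivity factor SL1, with its own TAFs, and Pol III uses TFIIIA, TFIIIB and TFIIIC. Most of these genes are active in every cell type, while a few paralogues have restricted uses, for instance in the germ line.

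The deposited data are lists of peak summits, each a 1 bp position with a score taken as −log10 of the peak's significance (p or q). The Tle4cKO list held 2350 summits and the WT list 10474, or 4.46 WT summits for each Tle4cKO summit, and the read depth is unknown. Scores grow with depth, so a score is given as the authors' value within its own list, and a gene without a summit may carry signal under the calling threshold. A gene end is a position within 1 kb of either outer end of a gene. Of 15 macrophage markers, 1 had a gene-end summit in Tle4cKO (6.67%, exact interval 0.169 to 31.9%) and 5 in WT (33.3%, 11.8 to 61.6%). Over all protein-coding genes the shares were 6.19% in Tle4cKO and 22.6% in WT, each inside its interval. The macrophage markers were therefore not set apart from other genes at gene ends. Csf2ra had a gene-end summit in both lists. Cd14, Fcgr1 (the CD64 gene), Cd68 and Cx3cr1 had one in WT. Lyz2, C1qa, C1qb and C1qc had no summit within 10 kb in either list. Gene-end summits also lay in both lists at the dendritic cell gene Xcr1 and in WT at Cd4, Cd79b and Kdr. None of the 10 epithelial, 6 neutrophil or 5 eosinophil markers had a gene-end summit. Within 10 kb, WT summits lay at 10 of the 15 macrophage and 5 of 6 dendritic cell markers, against 39.2% of all protein-coding genes. This share is inside both intervals (38.4 to 88.2% and 35.9 to 99.6%). WT summits also lay at 3 of 7 B and plasma cell, 3 of 7 fibroblast and endothelial and 2 of 8 T cell markers. They also lay within 10 kb of the epithelial gene Cdh1, the neutrophil gene Csf3r and the eosinophil gene Ccr3. In Tle4cKO, summits within 10 kb lay at 1 of 15 macrophage and 2 of 6 dendritic cell markers, against 11.6% of all genes. Jchain of the 7 B and plasma cell markers and Pecam1 of the 7 fibroblast and endothelial markers had one too. The part of other cell types in the results was not tested.

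The windows around the starts of 6 of these genes are shown first. Polr1a, Taf6, Med21 and Taf9 had the highest WT scores of the set and a summit in both libraries, Taf12 had summits in both with the lowest scores of the shared ones, and Med16 had the highest WT score without a Tle4cKO summit. Each window holds 300 bases, 250 before and 50 from the start on, 5′ to 3′ along the gene (RefSeq, GRCm38.p6, the assembly behind mm10). Capitals mark matches to the motifs named at the end of the results, on either strand. The windows are promoter sequence and need not hold the summits. Relative to the start (negative is upstream), the Med21 summits lay at 144 bp in WT and 488 bp in Tle4cKO. The WT summit of Med16 lay at 352 bp. The Tle4cKO summits of Taf9 (−299 bp) and Taf12 (230 bp) were also outside the windows.
Polr1a promoter window, chr6:71908803-71909102, plus strand: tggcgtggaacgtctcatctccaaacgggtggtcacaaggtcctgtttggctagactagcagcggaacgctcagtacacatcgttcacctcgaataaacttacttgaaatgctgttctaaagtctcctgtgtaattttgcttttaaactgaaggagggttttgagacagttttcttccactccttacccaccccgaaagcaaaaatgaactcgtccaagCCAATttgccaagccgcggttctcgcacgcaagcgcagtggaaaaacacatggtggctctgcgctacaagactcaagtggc
Taf6 promoter window, chr5:138187177-138187476, minus strand: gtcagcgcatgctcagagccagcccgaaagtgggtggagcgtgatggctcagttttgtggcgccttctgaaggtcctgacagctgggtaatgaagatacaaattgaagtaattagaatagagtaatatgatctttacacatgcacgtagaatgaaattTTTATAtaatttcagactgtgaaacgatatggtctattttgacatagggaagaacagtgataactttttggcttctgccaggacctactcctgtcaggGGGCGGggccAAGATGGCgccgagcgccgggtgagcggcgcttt
Med21 promoter window, chr6:146642329-146642628, plus strand: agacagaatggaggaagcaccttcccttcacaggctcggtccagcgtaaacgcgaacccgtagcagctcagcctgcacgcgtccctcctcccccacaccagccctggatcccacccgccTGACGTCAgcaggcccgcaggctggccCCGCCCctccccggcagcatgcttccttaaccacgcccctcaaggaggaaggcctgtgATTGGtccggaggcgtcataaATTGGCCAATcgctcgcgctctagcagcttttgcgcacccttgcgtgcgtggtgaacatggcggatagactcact
Taf9 promoter window, chr13:100651093-100651392, plus strand: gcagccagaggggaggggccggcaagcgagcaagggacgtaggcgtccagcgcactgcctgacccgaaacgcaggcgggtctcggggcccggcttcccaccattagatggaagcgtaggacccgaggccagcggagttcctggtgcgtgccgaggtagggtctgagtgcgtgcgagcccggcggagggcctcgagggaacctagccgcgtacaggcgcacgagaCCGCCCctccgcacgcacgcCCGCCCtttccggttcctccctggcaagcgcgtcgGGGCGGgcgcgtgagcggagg
Taf12 promoter window, chr4:132274125-132274424, plus strand: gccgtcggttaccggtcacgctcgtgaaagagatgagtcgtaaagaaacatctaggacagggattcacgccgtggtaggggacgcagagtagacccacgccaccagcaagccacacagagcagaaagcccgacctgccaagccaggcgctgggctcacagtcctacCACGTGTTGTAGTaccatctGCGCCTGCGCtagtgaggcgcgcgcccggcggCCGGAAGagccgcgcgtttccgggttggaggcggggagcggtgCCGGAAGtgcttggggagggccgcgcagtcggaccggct
Med16 promoter window, chr10:79908889-79909188, minus strand: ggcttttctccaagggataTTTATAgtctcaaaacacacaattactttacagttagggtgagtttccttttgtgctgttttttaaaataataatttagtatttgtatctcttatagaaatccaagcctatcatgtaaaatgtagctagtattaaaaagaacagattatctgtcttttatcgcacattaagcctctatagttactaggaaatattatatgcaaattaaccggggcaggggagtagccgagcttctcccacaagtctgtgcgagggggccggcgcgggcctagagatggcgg

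At gene ends, these genes were marked in WT more often than protein-coding genes in general, while the share marked in Tle4cKO was near that of all genes. A Tle4cKO summit lay at the end of 8 of 105 genes (7.62%, exact 95% interval 3.35 to 14.5%), against 6.19% of all protein-coding genes. A WT summit lay at the end of 47 of 105 (44.8%, 35.0 to 54.8%), against 22.6% of all. All 8 genes with a Tle4cKO summit also had a WT summit, so 8 were called in both (background 5.6%), 39 in WT alone (background 17%), 0 in Tle4cKO alone (0.594%) and 58 in neither (76.8%). Of the 47 genes with a WT gene-end summit, 17.0% (7.65 to 30.8%) were also called in Tle4cKO, and the background of 24.7% lies inside this interval. Intervals are exact Clopper-Pearson intervals that treat genes as independent and cover counting error only. When the WT list was shortened to its 2350 highest scores, 15 of the 105 genes (14.3%) had a WT gene-end summit, against 7.51% of all genes.

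**Figure D1:**
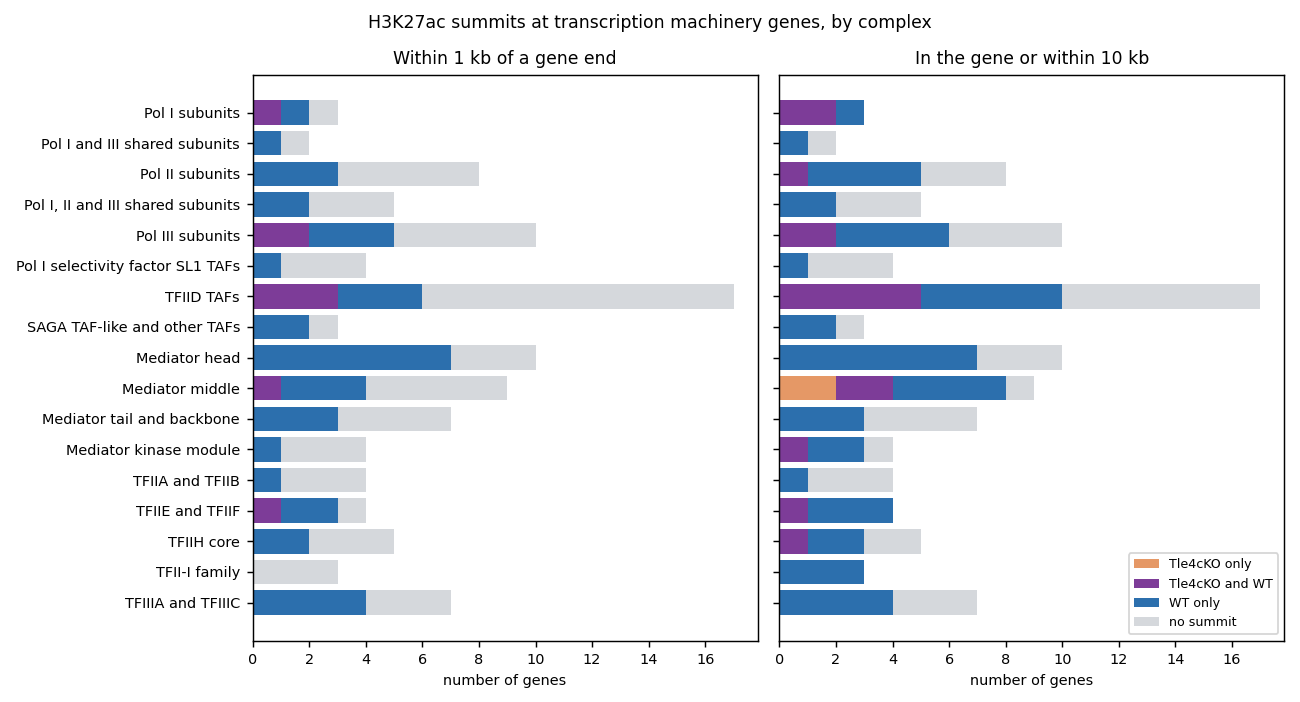
Number of genes per complex (horizontal axis) with a summit called in Tle4cKO only, in Tle4cKO and WT, in WT only, or in neither, within 1 kb of a gene end (left) and in the gene or within 10 kb (right). At gene ends no complex has a gene called in Tle4cKO only, and the 8 genes called in both lie in Pol I, Pol III, TFIID, Mediator middle and TFIIE.

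Among the polymerase genes, 3 of 28 had a gene-end summit in Tle4cKO (10.7%, 2.27 to 28.2%) and 13 of 28 in WT (46.4%, 27.5 to 66.1%). The background of 6.19% in Tle4cKO lies inside its interval and that of 22.6% in WT below it. Polr1a, which encodes the largest catalytic subunit of Pol I, scored 7.46 in Tle4cKO and 18.5 in WT, the highest WT score of the 105 genes. Its summits lay 73 bp apart, at position 71909050 of chromosome 6 in Tle4cKO and 71908977 in WT. Polr1e, another Pol I subunit, had a WT gene-end summit near the bottom of that list (1.88). Polr1c, a subunit that Pol I and Pol III share, scored 7.46 in WT alone, and its partner Polr1d had no summit within 10 kb in either list. The other Pol I core gene, Polr1b, had a WT summit of 2.98 that lay 181 bp from the end of its neighbour Chchd5.

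A Tle4cKO gene-end summit lay at 0 of 8 Pol II subunit genes (0 to 36.9%, background 6.19%). A WT gene-end summit lay at 3 of 8 (37.5%, 8.52 to 75.5%, background 22.6%). Both intervals include the background. Polr2a, which encodes the largest subunit with the repeated C-terminal tail, had no gene-end summit in either list. Its single WT summit within 10 kb (4.98) lay 536 bp from an end of Zbtb4. Polr2b, Polr2i and Polr2j had no summit within 10 kb. In WT, gene-end summits lay at Polr2d (8.30), a subunit of the stalk of Pol II, at Polr2c (7.01) and at Polr2m (3.83), whose product binds Pol II and competes with TFIIF. The other stalk gene, Polr2g, had only the WT summit of the neighbouring Taf6l within 10 kb (2.67). Of the 5 subunits that all polymerases share, Polr2l (4.40) and Polr2h (4.34) had a WT gene-end summit, and Polr2e, Polr2f and Polr2k had none in the wider window.

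Of 10 Pol III subunit genes, 2 were called in both libraries at a gene end (20%, 2.52 to 55.6%), an interval that includes the background of 5.6%. Polr3f, part of a subcomplex used in initiation, scored 6.84 in Tle4cKO and 7.71 in WT, with summits 129 bp apart. Polr3d, part of a dimer related to TFIIF, scored 5.49 in Tle4cKO and 5.08 in WT, 214 bp apart. At both genes the Tle4cKO score was in the upper part of its list, above or equal to 84.3% of summits for Polr3f and 74.1% for Polr3d. Polr3c (5.43), Polr3e (3.15) and Polr3gl (3.13) had a WT gene-end summit alone, and Polr3b a WT summit 6824 bp outside the gene. The gene of the largest Pol III subunit, Polr3a, had no summit within 10 kb, nor had Polr3g and Polr3k.

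TAF genes had gene-end summits in 3 of 24 cases in Tle4cKO (12.5%, 2.66 to 32.4%) and in 9 of 24 in WT (37.5%, 18.8 to 59.4%), and both intervals include the backgrounds of 6.19% in Tle4cKO and 22.6% in WT. The shared genes were Taf6, Taf9 and Taf12. Taf6 and Taf9 encode TFIID subunits that pair through histone folds. Taf6 scored 4.56 in Tle4cKO and 16.5 in WT, with summits 21 bp apart, at position 138187251 of chromosome 5 in Tle4cKO and 138187230 in WT. Its score was exceeded by 139 WT summits, and 61.0% of the Tle4cKO summits scored no higher than its summit there, although places in lists of different length show no change. Taf9 scored 7.55 in Tle4cKO and 10.9 in WT, with summits 259 bp apart. The WT summit lay 40 bp from an end of Taf9 and equally near an end of Ak6, and the Tle4cKO summit lay 17 bp from Rad17. These calls cannot be given to Taf9 alone. Taf12, a histone-fold subunit that pairs with Taf4 and is also part of the acetyltransferase complex SAGA, scored 3.47 in Tle4cKO and 3.35 in WT, 267 bp apart. The WT value stands in the lower part of its list, at or above 25.1% of the summits, so a call in both was also found at a low WT score.

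Other TFIID genes were called at a gene end in WT alone, among them Taf2 (5.61), Taf7 (4.61) and Taf4b (2.03). Taf1, which encodes the largest TFIID subunit, had no gene-end summit, but its WT summit of 2.48 lay inside the outer bounds, 98 bp before a listed internal start. Taf3, whose product reads methylated histone H3 at promoters, had 1 summit per library deep inside the gene, with scores of 4.56 in Tle4cKO and 4.31 in WT and 26271 bp between them. Taf10 had WT summits within 10 kb (4.62 and 3.57) that lay at the ends of neighbours. Taf4, Taf8, Taf11, Taf13, Taf7l, Taf7l2 and Taf9b had no summit within 10 kb in either list. Among the TAFs of SL1, Taf1d had a WT summit (3.84), which lay closer to the end of 4931406C07Rik, and Taf1a, Taf1b and Taf1c had none. Taf15, which encodes an RNA-binding protein of the FET family, scored 4.89 in WT and had no Tle4cKO summit.

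**Figure D2:**
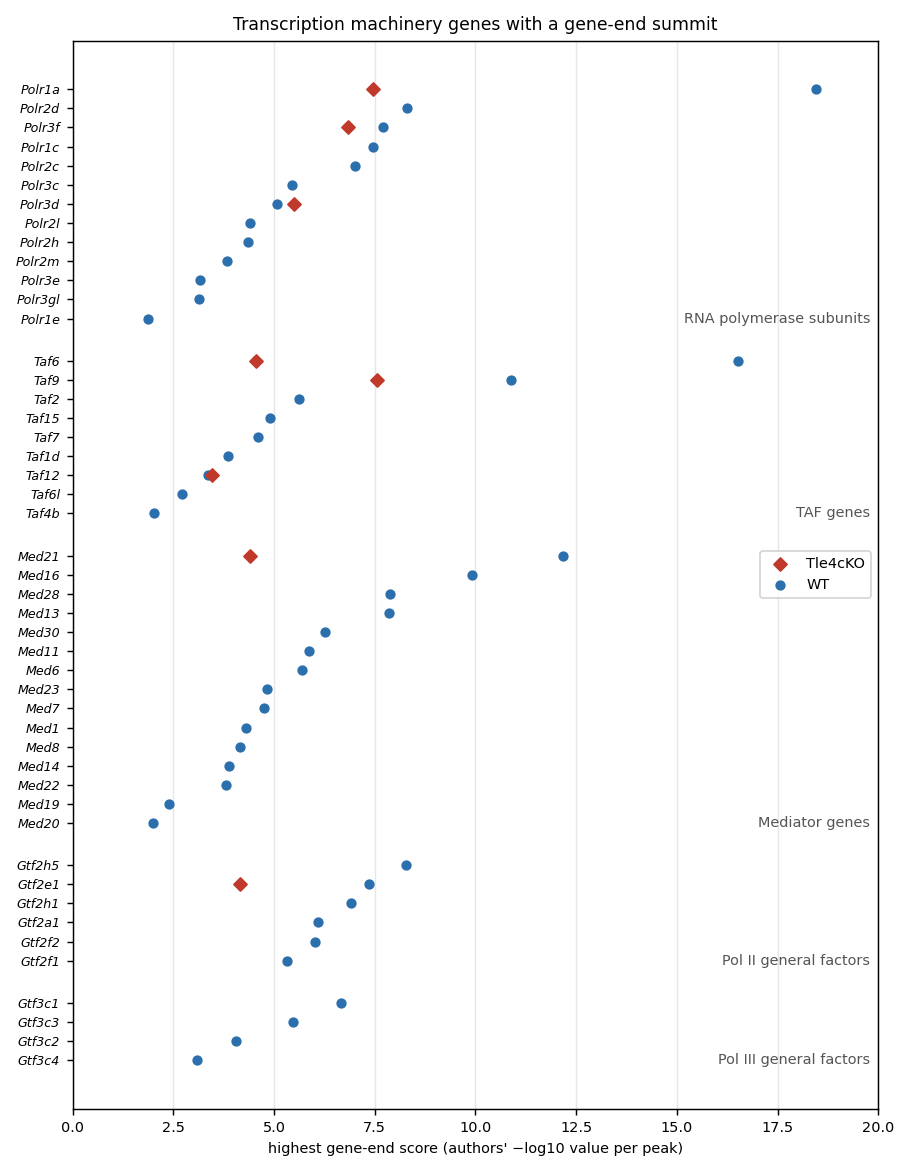
Highest gene-end score per gene (horizontal axis, the authors' −log10 value per peak) for the 47 genes with a WT gene-end summit, by gene group, with diamonds for Tle4cKO and circles for WT. The 8 diamonds lie between 3.47 and 7.55, and the WT scores of the same genes between 3.35 and 18.5.

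A gene-end summit lay at 1 of 30 Mediator genes in Tle4cKO (3.33%, 0.0844 to 17.2%) and at 15 of 30 in WT (50%, 31.3 to 68.7%). The share over all protein-coding genes was 6.19% in Tle4cKO, inside the first interval, and 22.6% in WT, below the second. The shared gene was Med21, a subunit at the hinge of the middle module, with scores of 4.40 in Tle4cKO and 12.2 in WT and summits 344 bp apart. Of the 15 WT genes, 6.67% (0.169 to 31.9%) were called in both, and the background of 24.7% is inside that wide interval.

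The head module, which contacts the polymerase, had a Tle4cKO gene-end summit at 0 of 10 genes (0 to 30.8%), an interval that includes the background of 6.19%, and a WT summit at 7 of 10 (34.8 to 93.3%, background 22.6%). The WT summits lay at Med28 (7.88), Med30 (6.28), Med11 (5.87), Med6 (5.68), Med8 (4.15), Med22 (3.80) and Med20, whose score was among the lowest 1.68% of the WT list. Med17, the scaffold of the head, had no summit within 10 kb, nor had Med18 and Med29. In the middle module, Med7 (4.75), Med1 (4.30), which binds nuclear receptors, and Med19 (2.38) were called in WT alone, and Med26 had a WT summit near Slc35e1 (4.66). Med10 had summits 169 bp apart at an internal listed start, with scores of 1.96 in Tle4cKO and 5.47 in WT. Med9 had no summit in the wider window. In the tail, Med16 had the highest WT score of the 105 genes without a Tle4cKO summit (9.93, position 79908586 of chromosome 10), and the nearest Tle4cKO summit lay 1482375 bp away. Med23 (4.83) and the backbone gene Med14 (3.88) were also called in WT alone, and Med15, Med24, Med25 and Med27 had no summit within 10 kb. In the kinase module, which holds Mediator off the polymerase, Med13 had a WT gene-end summit (7.86).

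General factors of Pol II had gene-end summits at 1 of 16 genes in Tle4cKO (6.25%, background 6.19%) and 6 of 16 in WT (37.5%, 15.2 to 64.6%, which includes the background of 22.6%). Gtf2e1, the large subunit of TFIIE, was the shared gene, with 4.15 in Tle4cKO and 7.35 in WT and summits 165 bp apart. TFIIH, which opens the promoter and also serves DNA repair, had WT summits at Gtf2h5 (8.27), its smallest subunit, and Gtf2h1 (6.91), and both TFIIF genes were called in WT alone, Gtf2f2 (6.00) and Gtf2f1 (5.32). Gtf2a1 of TFIIA scored 6.09 in WT, while Gtf2b, which encodes TFIIB, had no summit within 10 kb, nor had Gtf2a2, Gtf2a1l, Gtf2h3 and Gtf2h4. Gtf2e2 (3.19) and Gtf2h2 (2.61) had WT summits inside the gene. The genes of the TFII-I family, whose products bind specific DNA sites, had no gene-end summit, and all had a WT summit alone within 10 kb. That of Gtf2ird2 (5.62) lay 377 bp after a listed internal start, that of Gtf2i (3.45) 963 bp after one, and that of Gtf2ird1 (5.27) 4722 bp outside the gene.

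Among the 7 genes of the Pol III factors TFIIIA and TFIIIC, 0 had a Tle4cKO summit within 10 kb (0 to 41.0%, background 11.6%), and 4 had a WT gene-end summit (57.1%, 18.4 to 90.1%, background 22.6%). Both intervals include the background. The WT summits lay at genes of TFIIIC, which binds the internal promoters of transfer RNA genes: Gtf3c1 (6.67), Gtf3c3 (5.48), Gtf3c2 (4.04) and Gtf3c4 (3.08). Gtf3c5, Gtf3c6 and Gtf3a, the factor for the 5S ribosomal RNA genes, had none in the wider window.

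Genes called in both libraries had higher WT scores at the median than genes called in WT alone. The median WT gene-end score was 9.30 for the 8 genes called in both and 4.83 for the 39 called in WT alone. Over all protein-coding genes it was 7.07 for those called in both and 4.75 for those called in WT alone. A WT score of at least 10 was found at 4 of the 47 genes (background 9.01%). All 4 were called in both (exact 95% interval 39.8 to 100%), against 67.3% of 446 such genes in general. Below a score of 10 the count was 4 of 43, against 20.5% of all genes. From 5 to under 10 it was 3 of 21 (14.3%, 3.05 to 36.3%), and under 5 it was 1 of 22 (4.55%, 0.115 to 22.8%), with 30.0% from 5 to under 10 and 11.5% under 5 over all genes. The interval under 10 was 2.59 to 22.1%, which includes the share over all genes.

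**Figure D3:**
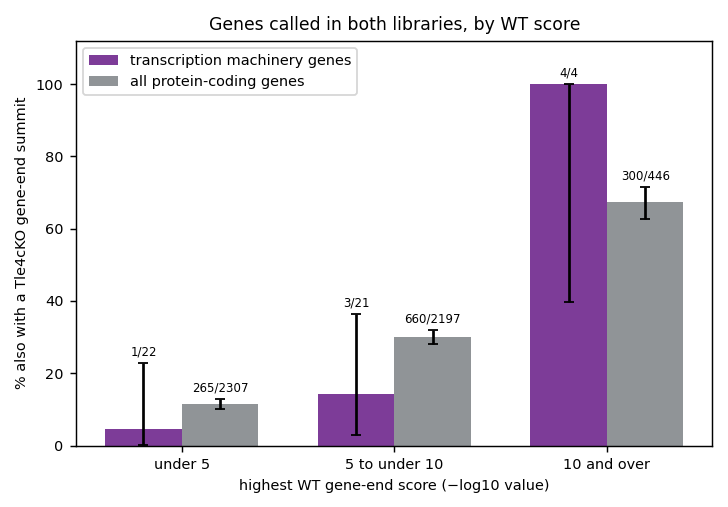
Share of genes with a WT gene-end summit that also had a Tle4cKO gene-end summit (vertical axis, percent), by WT score, for the transcription machinery genes and for all protein-coding genes; bars show shares with exact 95% intervals and numbers give genes called in both over genes with a WT summit. The share is 4 of 4 at scores of 10 and over and 1 of 22 under 5 in the transcription machinery.

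The summits of the shared genes lay close together and near transcription starts. The closest Tle4cKO and WT summits of the 8 genes lay 21 to 344 bp apart, with a median of 189.5 bp (98 bp over all genes called in both), and all 8 pairs were within 500 bp, against 96.4% of pairs in general. Strand and start were known for 91 of the 105 genes. Of the gene-end summits at these genes, 7 of 7 in Tle4cKO and 41 of 42 in WT lay within 1 kb of a listed start, against 95.3% in Tle4cKO and 92.4% in WT over all genes. The exception was a WT summit of Taf6l at its far end. Relative to the start, the median position was −25 bp in Tle4cKO and −4 bp in WT (negative is upstream), whereas over all genes the medians were 107 bp in Tle4cKO and 105 bp in WT. In WT, 20 of the 41 summits lay downstream of the start (48.8%), against 61.0% over all genes.

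**Figure D4:**
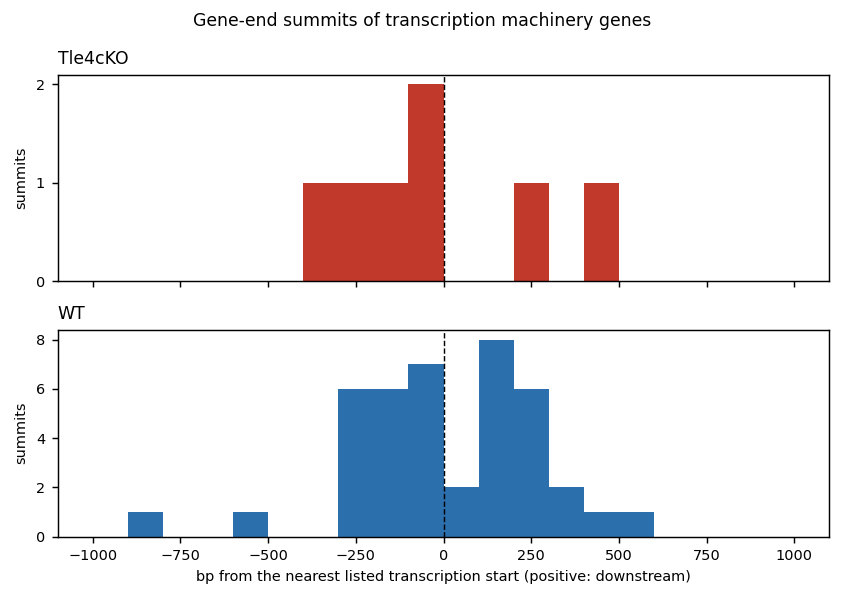
Number of gene-end summits (vertical axis) by distance from the nearest listed transcription start in bp (horizontal axis, positive downstream), for 7 Tle4cKO and 41 WT summits of the transcription machinery genes. Tle4cKO summits span −315 to 488 bp and WT summits −811 to 512 bp.

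Many of these genes have a close neighbour, so a summit often could not be given to a single gene. Another protein-coding gene end lay within 1 kb of an outer end in 48 of 105 genes (45.7%), against 24.8% of all protein-coding genes. Among genes with a WT gene-end summit the share was 48.9% in the set and 41.3% in general. Of the gene-end summits, 5 of 8 in Tle4cKO and 20 of 50 in WT were also within 1 kb of another gene's end. When each summit counted only for the nearest gene end, 5 genes kept a Tle4cKO summit and 37 a WT summit. The Tle4cKO summit of Taf9 was then nearest to the DNA damage checkpoint gene Rad17, that of Polr3f to Dzank1 and that of Gtf2e1 to Rabl3, and Polr1a, Taf6, Taf12, Med21 and Polr3d stayed called in both. The WT gene-end summits of Gtf2e1, Polr1c, Gtf2h5, Polr2h, Polr2l, Polr3c, Med8, Med20, Gtf3c4 and Taf1d were likewise nearer to another gene. These genes then lost their WT call. The highest WT gene-end summits of Med22 (3.80) and Taf6l (2.71) lay nearer to Rpl7a and Tmem179b. Both genes kept a WT call through a lower summit, of 2.53 at Med22 and 2.67 at Taf6l.

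With a window of 10 kb, 17 of 105 genes had a Tle4cKO summit (16.2%, 9.72 to 24.7%, background 11.6%) and 64 a WT summit (61.0%, 50.9 to 70.3%, background 39.2%). Both were found at 15 genes (background 10.8%), or 23.4% (13.8 to 35.7%) of those with a WT summit, against 27.6% in general, and the closest summits lay within 500 bp at 13 of the 15, against 89.8% in general. WT alone was found at 49 genes (background 28.4%). Of the 17 Tle4cKO summits behind these counts, 8 lay at gene ends of the set, 1 at the internal start of Med10, 1 inside Taf3, 5 at the end of another gene and 2 elsewhere. The Tle4cKO summit near Polr2d (10.0) lay 203 bp from an end of Wdr33, a gene of messenger RNA 3′ end processing, and 16 bp from a WT summit (10.3). The summits near Taf5, which encodes a TFIID scaffold subunit, lay between Atp5md and Pdcd11 (7.19 in Tle4cKO and 7.98 in WT). Those near Polr1e lay at Zbtb5 (1.83 in Tle4cKO and 4.91 in WT). Those near Med12 lay at Il2rg, the common cytokine receptor chain (2.21 in Tle4cKO and 3.49 in WT, 611 bp apart). Such values belong as much to the neighbours as to the polymerase, TAF and Mediator genes.

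A Tle4cKO summit without a WT summit in this window was found at 2 genes, both of the Mediator middle module (background 0.832%). The summit near Med31 (3.41) lay 106 bp from the end of 4933427D14Rik, and that near Med4 (5.88) lay 6523 bp beyond the far end of the gene. The nearest WT summits were 94031 and 27925 bp away. Downstream of Gtf2h1, both libraries had a summit, 7562 bp from the gene in Tle4cKO (3.66) and 7891 bp in WT (3.14). No summit within 10 kb was called in either list at 39 of the 105 genes (37.1%), against 60% of all protein-coding genes.

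Pairs of related genes in the set were put side by side as a description. No summit within 10 kb was called at 37.1% of the 105 genes, so a paralogue without one is not unusual here. The X-linked Taf9b had no summit within 10 kb, whereas Taf9 had one in both libraries. Taf7l and Gtf2a1l, which act in germ cells, also had none, whereas Taf7 (4.61) and Gtf2a1 (6.09) had a WT summit alone. Polr3g had none and Polr3gl a WT summit alone, the same held for Med13l and Med13, and Taf5l, the SAGA relative of Taf5, had none. Taf4 had no summit within 10 kb, and Taf4b had a WT summit that scored 2.03. Taf6l, the SAGA relative of Taf6, had WT summits of 2.71 and 2.67 and none in Tle4cKO. Med12l had 4 WT summits, all inside the gene (4.23 to 5.90), and its bounds take in the macrophage and microglia receptor gene P2ry12 and the gene Gpr171. The summit of 5.90 lay 340 bp from an end of Gpr171, and a summit of 4.99 lay 2044 bp from P2ry12.

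Other genes of the machinery, outside the name rule, were counted in the same way from 6 lists chosen with earlier results of these data known, of which 97 of 98 symbols matched. A gene-end summit lay at 21 of 97 in Tle4cKO (21.6%, background 6.19%) and at 55 of 97 in WT (56.7%, background 22.6%). Of the 55, 20 were called in both (36.4%, 23.8 to 50.4%). The share was 17.0% of the 47 in the named set and 24.7% over all genes, which lies between them and inside both intervals, and the difference was not tested. Pol I and Pol III initiation factors had a gene-end summit at 0 of 11 genes in Tle4cKO (0 to 28.5%) and 6 of 11 in WT (23.4 to 83.3%), led by the TFIIIB gene Brf1 (9.53) and the Pol III repressor Maf1 (5.61). Of 12 genes for the TATA-binding protein family and for kinase and helicase partners, 1 had a summit in Tle4cKO (0.211 to 38.5%) and 5 in WT (15.2 to 72.3%), and both intervals include the background. The TFIIH helicase gene Ercc3 had both (2.84 in Tle4cKO and 4.61 in WT), and Tbpl1 (8.26) and the TFIIH kinase gene Cdk7 (8.17) were called in WT alone. SAGA subunits had a summit at 4 of 16 genes in Tle4cKO (7.27 to 52.4%) and 9 of 16 in WT (29.9 to 80.2%), with both at Tada3 (4.94 in Tle4cKO and 15.8 in WT) and Sf3b3 (4.71 in Tle4cKO and 9.02 in WT) and WT alone at Eny2 (9.09) and Tada1 (8.39). Several genes named from the 6 lists have another protein-coding gene end within 1 kb of an outer end. Among them are Maf1, Cdk7, Tada3, Sf3b3, Eny2, Tada1, Larp7 and Rpap2. Summits at such genes may belong to the neighbours.

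Of 34 pausing and elongation factors, 8 had a gene-end summit in Tle4cKO (23.5%, 10.7 to 41.2%) and 20 in WT (58.8%, 40.7 to 75.4%), with backgrounds of 6.19% in Tle4cKO and 22.6% in WT here and in the next lists. Iws1, an elongation factor (4.69 in Tle4cKO and 15.2 in WT), and Larp7, which holds the 7SK RNA that restrains the pause-release kinase (7.57 in Tle4cKO and 11.1 in WT), had both. Ctr9 (9.99) and Rtf1 (7.41), partners in PAF1-type elongation, were called in WT alone. Of 15 Integrator genes, 5 had one in Tle4cKO (33.3%, 11.8 to 61.6%) and 10 in WT (66.7%, 38.4 to 88.2%). Ints8 (3.99 in Tle4cKO and 9.97 in WT) and Ints10 (3.39 in Tle4cKO and 8.46 in WT) had both, Ints9 (8.63) and Ints14 (7.36) WT alone, and Ints7 Tle4cKO alone (5.09), although it had a WT summit 23448 bp from that position. Of 9 genes for tail phosphatases and termination, 3 had a summit in Tle4cKO (33.3%, 7.49 to 70.1%) and 5 in WT (55.6%, 21.2 to 86.3%, an interval that includes the background). Rpap2 had both (4.69 in Tle4cKO and 9.10 in WT) and Xrn2 and Ctdsp1 WT alone (6.75 and 3.21), while the summits of Ssu72 (3.10 in Tle4cKO and 9.23 in WT) lay 28888 bp apart and so were not at the same place.

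The promoters of the set were rich in CG dinucleotides whether or not they were called. The median number per window of 300 bases was 22 in 107 windows of the 91 genes, against 13 in 21262 windows of protein-coding genes. It was 22.5 with and 20 without a WT gene-end summit, and the median GC content was 59% for the set and 56.3% in general. Searches on both strands covered the TATA box (TATAAA), the GC box of Sp factors (GGGCGG), the CCAAT box of NF-Y (CCAAT), an ETS site (CCGGAAG), an NRF1 site of 10 letters, the E-box (CACGTG), the CRE of CREB and ATF factors (TGACGTCA), a YY1 site (AAGATGGC), a ZNF143 core (ACTACAA) and an AP-1 site (TGANTCA). No motif contains the letters of another, and no matches overlapped in the windows printed above.

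An ETS site was found in 33.6% of the windows of the set, against 11.6% in general. It was found in 23.9% of windows of genes with a WT gene-end summit and 41.0% of those without, so the share was not higher among the called genes. E-boxes were found in 19.6% of the windows of the set (7.84% in general), NRF1 sites in 15.0% (6.38%), YY1 sites in 9.35% (3.05%) and GC boxes in 61.7% (46.2%). Split by WT gene-end summit, E-boxes were found in 26.1% of windows with and 14.8% without. For YY1 sites the split was 4.35% with and 13.1% without. These differences were not tested. TATA boxes were found in 12.1% of the set's windows and 12.6% in general, and AP-1 sites were found in 3.74% against 6.99%. CCAAT boxes were found in 31.8% (38.2% in general), ZNF143 cores in 5.61% (3.60%) and CREs in 3.74% (2.23%). In the windows printed above, Taf12 held ETS sites that began 32 bp upstream and 11 bp downstream of the start, beside an NRF1 site, an E-box and a ZNF143 core. Taf6 held a YY1 site that began 16 bp downstream, close to a GC box, and a reverse TATAAA farther up, and Med21 held adjoining CCAAT boxes in opposite directions that began 25 and 20 bp upstream, with another CCAAT box, a GC box and a CRE farther up. The Polr1a window, with the highest WT score, held 1 match, a CCAAT box that began 31 bp upstream, and Taf9 held GC boxes alone. The Med16 window held a single TATAAA on the reverse strand, 231 bp upstream. A match describes letters in the window and not binding.

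**Figure D5:**
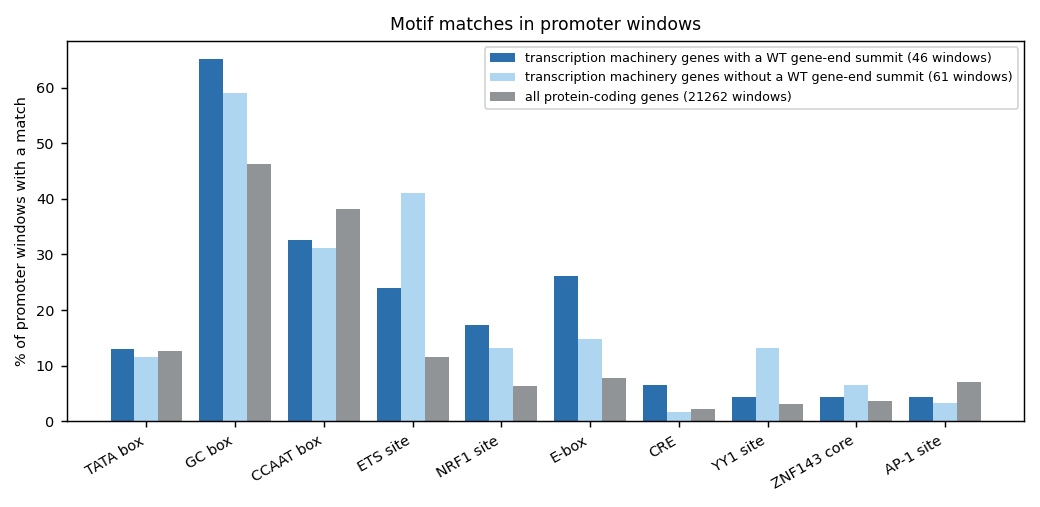
Share of promoter windows with a match to each motif on either strand (vertical axis, percent) for transcription machinery genes with and without a WT gene-end summit and for all protein-coding genes. ETS sites are found in 23.9%, 41.0% and 11.6% of windows, and TATA boxes in 13.0%, 11.5% and 12.6%.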

How the data were processed

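H3K27ac CUT&Tag was measured in 1 library of pooled sorted cells per genotype. The submitters' processing notes name cutadapt 1.14, Bowtie2 2.2.5 and the mm10 build. How peaks were called, and from how many reads, is not given in the sources used here. Each summit's deposited score was taken as a −log10 p- or q-value, because the lists have the layout of summit files and the lowest scores, 1.37 in Tle4cKO and 1.35 in WT, lie just above 1.30, the −log10 of 0.05. Whether it is p or q is not stated. The 2 Tle4cKO and 4 WT summits outside chromosomes 1 to 19, X and Y were left out. Genes came from a RefSeq table on GRCm38.p6, and starts and strands from its promoter table, which held 91 of the 105 genes. A summit counted for every gene within 1 kb of whose outer end, or within 10 kb of which, it lay; a gene called in both need not have its summits at the same place. Windows, counts and exact intervals were computed with Python 3.11.15, pandas 2.3.3 and SciPy 1.17.1. Gene-end calls were checked on simulated summits at genes set apart from their neighbours, and the other steps were not checked in this way. The members and gene lists were chosen with earlier results of these data known. Genes of the set were named with values by a rule on calls and scores, and a few items are not reported here; in the other lists up to 2 genes per list and class were named by WT score. With 1 library per genotype no test between genotypes was made.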

Additional observations from a re-analysis of the deposited data

How the results depend on the processing

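Of 44 values recomputed under other settings, 24 stayed within 1.5 times. With a window of 5 kb, 11 genes of the set had a Tle4cKO summit near them, against 17 with 10 kb. When a summit counted only for the nearest gene end, 5 genes had a Tle4cKO gene-end summit and 5 were called in both, against 8 each. At scores of at least 5, gene-end summits lay at 4 genes in Tle4cKO and 25 in WT, with 4 in both, and summits within 10 kb at 7 genes in Tle4cKO and 32 in WT, with 6 in both. At scores of at least 10 the counts at gene ends were 0 in Tle4cKO, 4 in WT and 0 in both, and within 10 kb 1 in Tle4cKO, 5 in WT and 1 in both. With the WT list shortened to 2350 summits, 15 genes had a WT gene-end summit and 18 a WT summit within 10 kb, with 9 in both. Requiring summits within 200 bp left 4 genes in both at gene ends and 7 within 10 kb. The loss of calls at higher score minimums, narrower windows and shorter lists follows from their construction. Leaving out 13 paralogues of restricted use and genes outside the core complexes kept every count within 1.5 times. No paired analysis was possible because there was 1 library per genotype. The depth is unknown, so a missing summit is a region not called and not an absence of acetylation.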
